A study of Homo sapiens with 5 samples.

Results

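KEOPS is the protein complex that places the t6A modification (N6-threonylcarbamoyladenosine) on tRNAs. The mRNAs of its 5 subunits, *LAGE3*, *OSGEP*, *TP53RK*, *TPRKB*, and *GON7*, were measured in TF-1 cells with and without a knockout of *MTSS1*. All 5 genes were found by symbol among the 27328 Ensembl genes of the count table, and all 5 were among the 14391 genes that passed the filter on low counts. The complex was chosen by its values in this experiment, since *LAGE3* mRNA differed between the knockout and the control pools. The differences between these groups are therefore given for the subunits as a description, without p-values.

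TF-1, a human cell line from an AML, has erythroid and myeloid features. All cells were transduced with a lentiviral vector that encodes Cas9, GFP, and an sgRNA, were sorted for GFP, and were grown as single-cell clones, of which 4 were pooled per library. The 2 control libraries are TF-1_sgCtrl_1 and TF-1_sgCtrl_2, called control pools 1 and 2 here, which share 1 sgRNA against the *Renilla luciferase* gene. The 3 knockout libraries are TF-1_sgMTSS1_1, TF-1_sgMTSS1_2, and TF-1_sgMTSS1_3, each with an sgRNA of its own against *MTSS1* and with clones chosen for loss of the protein on immunoblots. Another control pool and an sgMTSS1_4 pool, which the study set aside after an outlier test on these data, were not analysed here. Values of knockout pools are given in the order sgMTSS1_1, sgMTSS1_2, and sgMTSS1_3 throughout. SE is the standard error, and BH stands for Benjamini-Hochberg.

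KEOPS acts on the tRNAs that read codons beginning with A. The enzyme YRDC first makes an activated threonylcarbamoyl group, and OSGEP, the catalytic subunit, transfers it to the adenosine that follows the anticodon. TP53RK is a small kinase-like ATPase that binds OSGEP, and TPRKB binds TP53RK. LAGE3 binds OSGEP on the other side and is itself bound by GON7, a small, largely disordered protein. The modification steadies the pairing of codon and anticodon, and inherited mutations in each of the 5 genes cause Galloway-Mowat syndrome, a disease of kidney and brain.

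Total counts were 2849979 and 3408827 in the control and between 5442639 and 8854899 in the knockout libraries, so that every knockout library was deeper than both control libraries, and depth and condition cannot be told apart from the counts as they are. The smallest level shown by 3 counts lay between 0.389 and 0.938 CPM. CPM, the usual depth-scaled counts, were computed with TMM factors. The share of counts from ribosomal protein genes also moved with the condition, from 7.84% and 9.19% in the control to between 12.2% and 18.1% in the knockout libraries, highest in the sgMTSS1_1 pool. That of mitochondrially encoded genes was 13.9% and 8.63% in control pools 1 and 2 and between 6.71% and 7.44% in the knockout libraries. *MTSS1* mRNA itself did not separate the groups, with 87.9 and 204 CPM in the control and 49.9 to 139 CPM in the knockout pools, so the labels could not be checked by it. Its log2-fold change was −0.58 (SE 0.47, edgeR BH-adjusted p = 0.494). All 12 erythroid and myeloid marker genes examined were detected in all 5 libraries, among them *GATA1*, *KIT*, and *CD34*. Of the markers of other cells, *COL1A1*, *EPCAM*, *ALB*, and *CDH5*, of fibroblasts, epithelium, liver, and vessels, reached at most 1.08 CPM in any library, and *PECAM1*, shared by endothelium and blood cells, was between 116 and 238 CPM. The libraries are bulk samples, in which fewer expressing cells and less mRNA per cell cannot be told apart.

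*LAGE3* (ENSG00000196976) was the subunit with the largest difference. The gene lies on the minus strand of the X chromosome of GRCh38, at chrX:154477775-154479281. Its mRNA was at 22.8 and 5.66 CPM in control pools 1 and 2 but at 139, 79.3, and 106 CPM after knockout. Each knockout pool was thus above both control pools, and the lowest knockout value was more than 3 times the highest control value. It averaged 14.2 ± 12.1 CPM over the control pools (SD, n = 2) against 108 ± 30.2 CPM over the knockout pools (SD, n = 3). The log2-fold change was 2.93 (SE 0.56), or 7.61-fold, and placed *LAGE3* at rank 244 of the 14391 tested genes.

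The control pools differed from each other more for *LAGE3* than for any other subunit. Pool 1 was 4.03-fold above pool 2, and the 95% counting intervals of the pools, 17.9 to 28.7 and 3.41 to 8.84 CPM, did not overlap. A gap between the control pools at least as large on the log2 CPM scale (prior count 2) was found for 6.12% of the tested genes, and the median gap was 1.51-fold. The size of the *LAGE3* difference therefore depended on which control pool was used. The log2-fold change was 4.26 with control pool 1 left out and 2.27 with control pool 2 left out. When all libraries were thinned to 2849979 counts, *LAGE3* kept 73 and 16 counts in the control and 339, 223, and 313 counts in the knockout pools. The groups did not overlap there either. Thinning keeps the expected share of a gene in its library, so it cannot separate depth from condition.

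**Figure D1:**
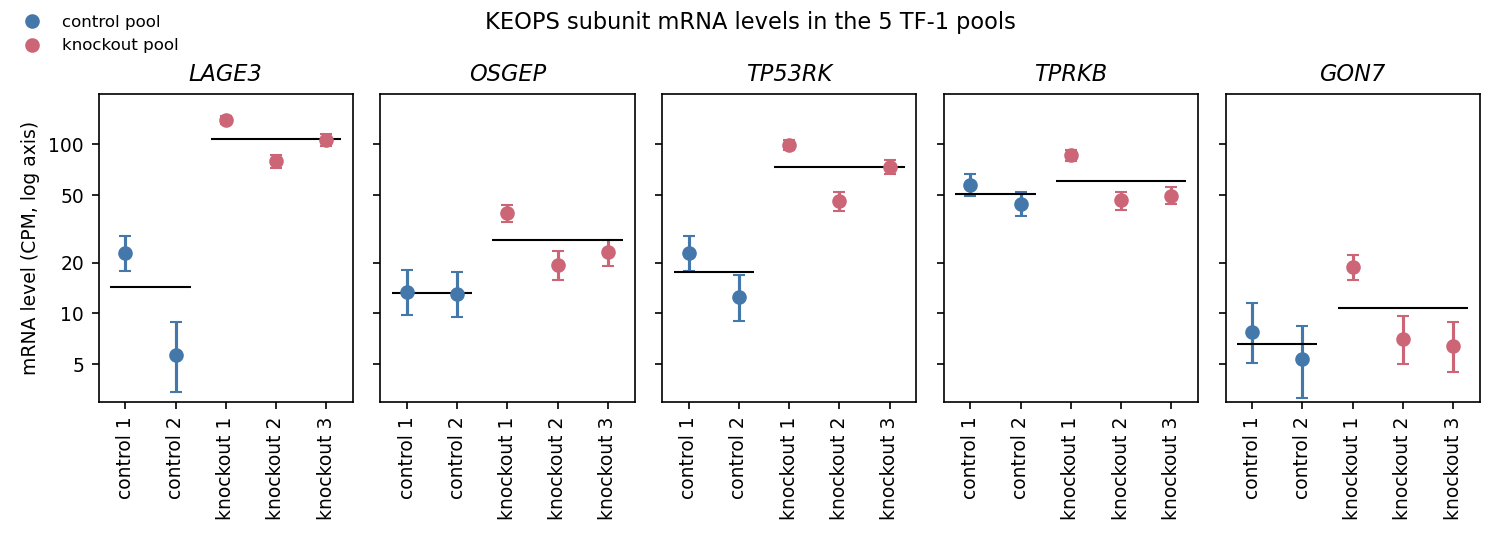
mRNA level of each KEOPS subunit in CPM (log axis) in the 2 control and 3 knockout pools. Points are single libraries, bars are 95% Poisson intervals that cover counting error only, and horizontal lines are group means. *LAGE3* sits at 5.66 and 22.8 CPM in control and between 79.3 and 139 CPM in knockout pools, while *TPRKB* and *GON7* overlap between the groups.

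*TP53RK* (ENSG00000172315, chr20:46684365-46689444, minus strand) was the second subunit for which the groups did not overlap. Its mRNA was at 22.8 and 12.5 CPM in the control pools and reached 99.2, 46.0, and 73.9 CPM after knockout. All 3 knockout pools again lay above both control pools, and the sgMTSS1_2 pool was the lowest of them, as it was for *LAGE3*. The means were 17.7 ± 7.29 CPM (SD, n = 2) and 73.1 ± 26.6 CPM (SD, n = 3), with a log2-fold change of 2.05 (SE 0.44), or 4.14-fold. Its rank was 622.

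*OSGEP* (ENSG00000092094, chr14:20446401-20455089, minus strand), the catalytic subunit, was at 13.4 and 13.1 CPM in the control pools, which differed by less than their counting intervals. The knockout pools were at 39.0, 19.3, and 23.0 CPM, all above both control pools. The sgMTSS1_1 pool stood well above the others. The means were 13.3 ± 0.235 CPM (SD, n = 2) and 27.1 ± 10.5 CPM (SD, n = 3), with a log2-fold change of 1.03 (SE 0.39). Without the sgMTSS1_1 pool, it was 0.66.

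For the remaining subunits the groups overlapped. *TPRKB* (ENSG00000144034, chr2:73729104-73737400, minus strand) was at 57.5 and 44.4 CPM in the control pools and at 86.3, 46.6, and 49.8 CPM in the knockout pools. Only the sgMTSS1_1 pool lay above both control pools. The log2-fold change was 0.26 (SE 0.36), and it was −0.09 without that pool. *GON7* (ENSG00000170270, chr14:93202894-93207065, minus strand) had the lowest counts, between 18 and 145 per library. It was at 7.82 and 5.36 CPM in the control pools and at 18.8, 7.04, and 6.44 CPM in the knockout pools, and again only the sgMTSS1_1 pool stood apart. The log2-fold change of *GON7* was 0.72 (SE 0.55), and 0.02 without that pool.

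Genes were counted as differentially expressed if the BH-adjusted p-value of edgeR's quasi-likelihood test was under 0.05 and the log2-fold change exceeded 1 in size. By this rule 2 of the 5 subunits were called, *LAGE3* and *TP53RK*, both higher in the knockout. Across all tested genes, 5.18% were called in either direction and 4.17% were called higher. Every knockout pool was above both control pools for 3 of the 5 subunits, against 22.2% of all tested genes. The median log2-fold change was 1.03 over the subunits and −0.03 over all tested genes. These counts are read with no test, since *LAGE3* was chosen for its difference. Both calls were lost when the sgMTSS1_1 or the sgMTSS1_3 pool was left out, and that of *TP53RK* also without control pool 2.

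**Figure D2:**
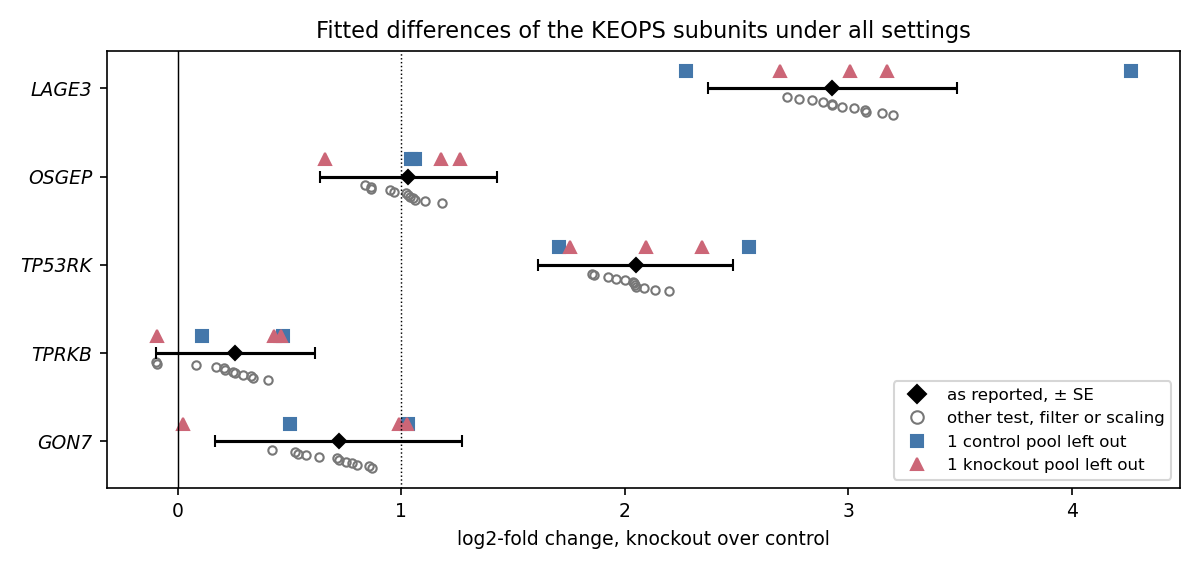
Log2-fold change of knockout over control pools for each KEOPS subunit. Diamonds with bars are the reported values ± standard error, circles are the 12 other tests, filters, and scalings, squares leave out 1 control pool, and triangles leave out 1 knockout pool; the dotted line marks 1. *LAGE3* ranges from 2.27 to 4.26 and stays to the right of the other subunits in the reported fit, while *TPRKB* lies on both sides of 0.

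In all 5 cases the sgMTSS1_1 pool was the highest of the knockout pools. Its level exceeded that of the lowest knockout pool 1.76-fold for *LAGE3*, 2.02-fold for *OSGEP*, 2.16-fold for *TP53RK*, 1.85-fold for *TPRKB*, and 2.92-fold for *GON7*. Across all tested genes the median range among the knockout pools was 1.51-fold on the log2 CPM scale (prior count 2). On that scale, 32.1% of the tested genes had a range at least as large as that of *LAGE3*. The shares were 21.0% for *OSGEP*, 16.7% for *TP53RK*, 27.1% for *TPRKB*, and 6.70% for *GON7*. The sgMTSS1_1 library was also the deepest and had the largest share of ribosomal protein counts, and the part of either in the subunit levels was not tested. Control pool 1, the library with the largest mitochondrial share, was the higher control for all 5 subunits. For *OSGEP*, however, the control pools were nearly equal, at 13.4 and 13.1 CPM. The part of the mitochondrial share in these levels was not tested.

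A ratio of counts within a library does not depend on the library total or on the scaling, and *OSGEP* served as the common denominator. *OSGEP* itself was higher in each knockout pool than in both control pools (log2-fold change 1.03), so every ratio also moves with its denominator. The *LAGE3* count was 1.70 and 0.432 times the *OSGEP* count in control pools 1 and 2, but 3.57, 4.10, and 4.61 times after knockout. None of the exact 95% binomial intervals of the knockout pools, which began at 3.14 or above, reached those of the control pools, which ended at 2.54 or below. The sgMTSS1_1 pool, highest in CPM, was the lowest knockout pool in this ratio. The *TP53RK* ratio was 1.70 and 0.955 in the control against 2.54, 2.38, and 3.22 in the knockout pools, again without overlap of the groups, although the interval of control pool 1 (1.15 to 2.54) overlapped those of the sgMTSS1_1 and sgMTSS1_2 pools.

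The *TPRKB* ratio went the other way. It was 4.28 and 3.39 in the control pools against 2.21, 2.41, and 2.17 in the knockout pools, all below both control pools, although the interval of control pool 2 (2.40 to 4.85) overlapped those of the knockout pools. In CPM, *TPRKB* was not lower after knockout (log2-fold change 0.26, groups overlapping). For *GON7*, the ratio was 0.581 and 0.409 in the control against 0.482, 0.364, and 0.280 in the knockout pools, and the groups overlapped. Of the summed counts of the 5 subunits, which are 3′ reads not divided by transcript length, *LAGE3* made up 18.3% and 6.99% in the control pools (exact 95% intervals 14.7 to 22.5 and 4.26 to 10.7) and 36.4%, 40.0%, and 40.9% in the knockout pools (lowest bound 34.7). Per *OSGEP* count, the knockout pools thus held more *LAGE3* and *TP53RK* and fewer *TPRKB* reads than either control pool.

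**Figure D3:**
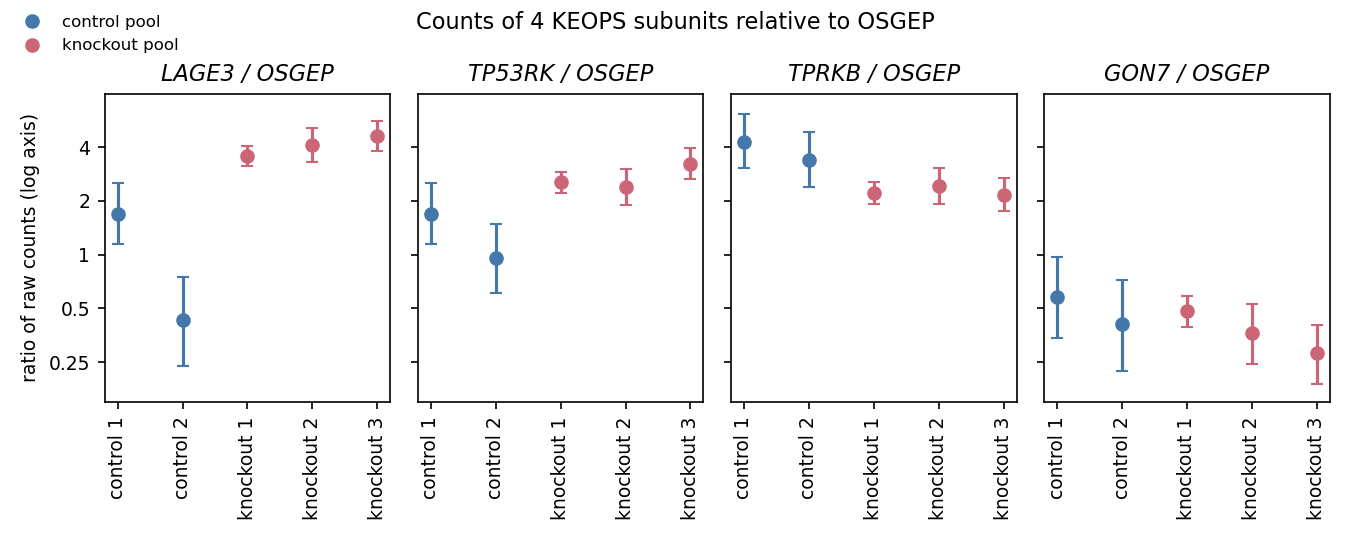
Raw counts of *LAGE3*, *TP53RK*, *TPRKB*, and *GON7* divided by the *OSGEP* count of the same library (log axis), with exact 95% binomial intervals that cover counting error only. The knockout pools lie above both control pools for *LAGE3* (3.57 to 4.61 against 0.432 and 1.70) and *TP53RK*, below them for *TPRKB*, and overlap them for *GON7*.

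The reads of these libraries come from the 3′ ends of mRNAs, so the annotated ends show which counts can be told apart. Signals for cleavage and polyadenylation (AATAAA or ATTAAA, in capitals below) were searched within 50 bases of the end of the main transcript, and those of 2 subunits are shown here from GRCh38 because the reads of such libraries lie just upstream of them. For *OSGEP* and *GON7* neither signal was found in that window.
*TP53RK*, chr20:46684371-46684400, minus strand: gaactgtgagttATTAAActtttcctttat
*TPRKB*, chr2:73729894-73729923, minus strand: aaaattctcagcATTAAAgaaaacattgat

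The 3′ end of *LAGE3* overlaps that of *PLXNA3*, a plexin receptor gene on the opposite strand, by 5 bases. *PLXNA3* was low in all libraries, between 9.99 and 23.8 CPM with overlapping groups, and its log2-fold change of 0.29 (SE 0.46, edgeR BH-adjusted p = 0.758) did not pass the test. Of the neighbors without overlap, *UBL4A*, a ubiquitin-like gene 4435 bases upstream of *LAGE3*, had a log2-fold change of 0.25 and *FAM50A*, on the other side, of −0.84 (adjusted p = 0.643 and 0.266). No gene flanking *LAGE3* thus passed the test.

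A processed pseudogene, *LAGE3P1*, was counted as a gene of its own. It had 0 counts in both control pools but 16, 13, and 13 counts after knockout, a level at least 2.43-fold higher measured against 3 counts per control library. Its counts were 1.49%, 2.96%, and 2.13% of those of *LAGE3* in the knockout pools. With the *LAGE3* counts of the control pools, a count of 0 allows shares of up to 4.11% and 15.8%, so the control pools could not have shown such a share. Reads that map to more than 1 place had been removed, and how many *LAGE3* reads this took from the count was not tested. *TPRKB* has 2 processed pseudogenes, each with at most 6 counts in any library.

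The end of *TP53RK* overlaps a gene on the same strand. *SLC13A3*, which encodes a dicarboxylate transporter of the kidney, begins 103 bases upstream of the *TP53RK* end, and its first exon shares 72 bases with the last exon of *TP53RK*, including part of the stretch printed above. Reads in those bases cannot be assigned to either gene by strand. *SLC13A3* was at 10.3 and 7.45 CPM in the control and at 28.8, 29.1, and 36.9 CPM in the knockout pools. Its log2-fold change was 1.83 (SE 0.35, edgeR BH-adjusted p = 0.0227), close to that of *TP53RK*. The *SLC13A3* count was 0.452 and 0.595 times that of *TP53RK* in the control against 0.290, 0.631, and 0.499 times in the knockout pools, so the groups overlapped in this ratio. How many of the reads of either gene come from the shared exon was not tested. *SLC13A3* no longer passed when any 1 of the knockout pools was left out (adjusted p between 0.0537 and 0.0796 from the same test).

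**Figure D4:**
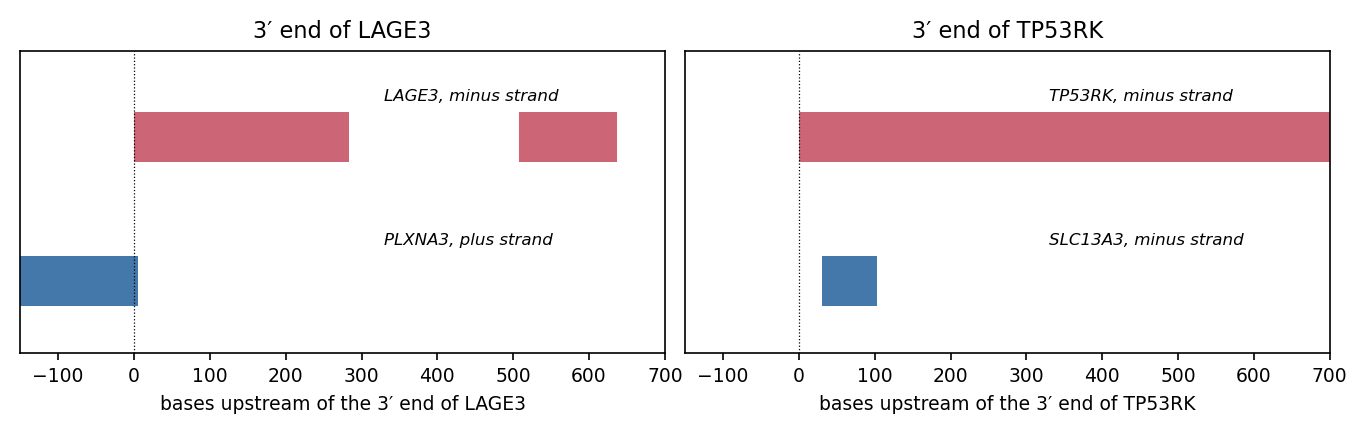
Annotated exons around the 3′ ends of *LAGE3* (left) and *TP53RK* (right), plotted by distance in bases from the end of the subunit's transcript, with the overlapping gene below. *PLXNA3* reaches 5 bases into *LAGE3* from the opposite strand, while an exon of *SLC13A3* on the same strand lies wholly inside the last exon of *TP53RK*.

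*OSGEP* and *GON7* have close partners at their 5′ ends. *OSGEP* and *APEX1*, the gene of a DNA repair endonuclease, start 101 bases apart on opposite strands. *APEX1* was at 74.7 and 182 CPM in the control and at 218, 169, and 115 CPM in the knockout pools (log2-fold change 0.38, edgeR BH-adjusted p = 0.641), so its pools overlapped where those of *OSGEP* did not. *GON7* and *UBR7*, a ubiquitin ligase gene, start 175 bases apart, and *UBR7* had a log2-fold change of 0.24 (adjusted p = 0.700 from the same test). *DUSP11*, an RNA phosphatase gene 24381 bases from *TPRKB*, was low, at 4.38 and 1.79 CPM in the control and between 6.09 and 12.1 CPM in the knockout pools (log2-fold change 1.62, adjusted p = 0.112). On the other side of *TPRKB*, *NAT8B* was at 1 to 30 counts per library (log2-fold change 1.31, adjusted p = 0.326), and next to *GON7*, *LYSET* was at 3 to 25 counts (log2-fold change 0.25, adjusted p = 0.874). *KLHL33* beside *OSGEP* and *SLC2A10* beside *TP53RK* had at most 10 counts in any library and were not tested, and *OCSTAMP* and 2 unnamed genes that overlap *OSGEP* and *GON7* on the opposite strand were not analysed here.

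Promoters are shown to compare the 2 called subunits with others. For 4 subunits the 250 bases before the RefSeq start site on GRCh38.p14 are printed, for *TPRKB* before the first of its start sites in the table. *GON7* was not analysed here. Capitals mark matches, on either strand, to the E-box CACGTG, the CCAAT box CCAAT, the GC box GGGCGG, the ETS motif CCGGAAG, and the TATA box TATAAA.
*LAGE3*, chrX:154479282-154479531, minus strand: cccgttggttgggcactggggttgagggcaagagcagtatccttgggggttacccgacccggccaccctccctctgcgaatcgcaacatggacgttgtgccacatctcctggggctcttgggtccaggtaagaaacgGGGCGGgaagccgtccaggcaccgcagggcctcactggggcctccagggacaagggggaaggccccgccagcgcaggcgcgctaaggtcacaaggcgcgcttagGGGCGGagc
*TP53RK*, chr20:46689445-46689694, minus strand: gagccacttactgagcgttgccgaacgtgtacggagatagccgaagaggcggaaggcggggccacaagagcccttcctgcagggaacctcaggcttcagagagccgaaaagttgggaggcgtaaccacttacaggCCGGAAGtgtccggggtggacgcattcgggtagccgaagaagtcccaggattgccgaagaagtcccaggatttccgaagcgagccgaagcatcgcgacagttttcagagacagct
*OSGEP*, chr14:20454813-20455062, minus strand: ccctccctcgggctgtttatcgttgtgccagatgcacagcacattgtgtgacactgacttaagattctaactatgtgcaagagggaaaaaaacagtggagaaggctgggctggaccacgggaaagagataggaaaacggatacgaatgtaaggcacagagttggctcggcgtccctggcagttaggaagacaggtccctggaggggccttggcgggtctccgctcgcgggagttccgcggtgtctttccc
*TPRKB*, chr2:73737346-73737595, minus strand: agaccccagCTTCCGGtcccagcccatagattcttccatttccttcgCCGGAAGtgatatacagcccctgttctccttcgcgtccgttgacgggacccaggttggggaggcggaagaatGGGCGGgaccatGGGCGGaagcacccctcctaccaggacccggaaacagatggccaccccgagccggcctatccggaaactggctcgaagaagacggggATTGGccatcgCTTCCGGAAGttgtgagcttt

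The windows of *LAGE3* and *TP53RK* share none of these motifs. *LAGE3* holds 2 GC boxes and *TP53RK* 1 ETS motif. At least 1 GC box was found in 42.6% of the 35116 RefSeq windows of this length, and at least 1 ETS motif in 8.52%. *TPRKB* holds 4 ETS matches, of which a pair overlap as a palindrome, together with 2 GC boxes and a reversed CCAAT box, the last found in 32.0% of all windows. The *OSGEP* window holds none of the 5 motifs. The E-box and the TATA box, in 6.34% and 10.7% of all windows, were found in none of the 4. A match describes the letters and does not show a bound factor.

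The transcripts of the subunits are unlike each other in composition. The main transcript of *LAGE3* has 967 bases, shorter than most, and a GC content of 64.9%, above that of 96.9% of the tested genes, where the medians are 2754 bases and 47.1%. *TP53RK* is longer (3180 bases) and poorer in GC (43.6%). *TPRKB*, with 664 bases and 35.7% GC, and *GON7*, with 1125 bases and 39.4%, are short and AT-rich. With offsets for GC content and length in the model, the log2-fold changes were 2.78 for *LAGE3*, 1.92 for *TP53RK*, and 0.84 for *OSGEP*, so the order of these subunits was the same.

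Of the 4 enzymes that act before or after KEOPS, or in its place in mitochondria, none was called with edgeR, DESeq2, or limma-voom. In edgeR 1 of them, *CDKAL1*, had an unadjusted p-value under 0.05. Of all 14391 tested genes, 5.18% were called in edgeR and 3359 had an unadjusted p-value under 0.05. A list of 4 is too short to be read against these shares. *YRDC*, which supplies the threonylcarbamoyl group, was at 14.4 and 11.6 CPM in the control and at 17.8, 15.9, and 17.4 CPM in the knockout pools (log2-fold change 0.39, SE 0.33, edgeR BH-adjusted p = 0.521). *OSGEPL1*, the mitochondrial relative of *OSGEP*, had a log2-fold change of 0.34 (adjusted p = 0.582). *CDKAL1*, which adds a methylthio group to t6A, was at 54.1 and 34.9 CPM in the control and between 23.7 and 27.1 CPM in the knockout pools, a log2-fold change of −0.82 (SE 0.31, adjusted p = 0.151). *TRMO*, which methylates t6A, had a log2-fold change of 0.95 (adjusted p = 0.336). Whether the subunits differ from these genes was not tested.

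Other enzymes that modify the anticodon loop were examined as a list of 34, of which 33 were tested. They had a median log2-fold change of 0.24, and 3 were called, all higher in the knockout, where 4.17% of all tested genes were called higher. These were *TRMT112*, a methyltransferase activator, and *CTU2* and *URM1*, which both serve the thiolation of the wobble uridine. *TRMT112* was at 8.13 and 1.79 CPM in the control and at 186, 81.4, and 98.8 CPM in the knockout pools (log2-fold change 4.62, SE 0.65, edgeR BH-adjusted p = 0.00984). *URM1* was at 62.5 and 60.2 CPM in the control and at 189, 143, and 190 CPM in the knockout pools (log2-fold change 1.50, adjusted p = 0.0258). *CTU2* had 1 count in both control pools together and 93 in the knockout pools, a ratio of 32.1 in CPM with a counting interval from 5.62 to 1281. *CTU1*, the partner of *CTU2*, had a log2-fold change of −0.99 (adjusted p = 0.373). *TRMT112* and *CTU2* overlap *ESRRA* and *PIEZO1* on the opposite strand. *URM1* did not pass without any 1 of the knockout pools or with the pool number as a block and offsets for GC content and length together (adjusted p = 0.0707), and *CTU2* not without the sgMTSS1_1 or the sgMTSS1_3 pool.

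tRNAs with t6A are charged by the synthetases for isoleucine, methionine, threonine, lysine, asparagine, serine, and arginine. Of the 8 genes of these enzymes, *MARS1*, for methionine, was the 1 called, higher in the knockout, beside 4.17% of all tested genes. It was at 33.5 and 33.4 CPM in the control and at 122, 76.7, and 87.0 CPM in the knockout pools (log2-fold change 1.51, SE 0.33, edgeR BH-adjusted p = 0.0328), and did not pass without control pool 2 or any 1 knockout pool. *IARS1*, for isoleucine, lay below both control pools in each knockout pool (log2-fold change −0.92, adjusted p = 0.0827), as did *TARS3*, for threonine (−0.61, adjusted p = 0.294). The same held for 2767 of all 14391 tested genes. For 2 of the 8 synthetase genes, *MARS1* among them, every knockout pool lay above both control pools, against 22.2% of all tested genes. The median over the 8 was −0.06. *MARS1* overlaps *ARHGAP9* and *DDIT3* on the opposite strand.

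**Figure D5:**
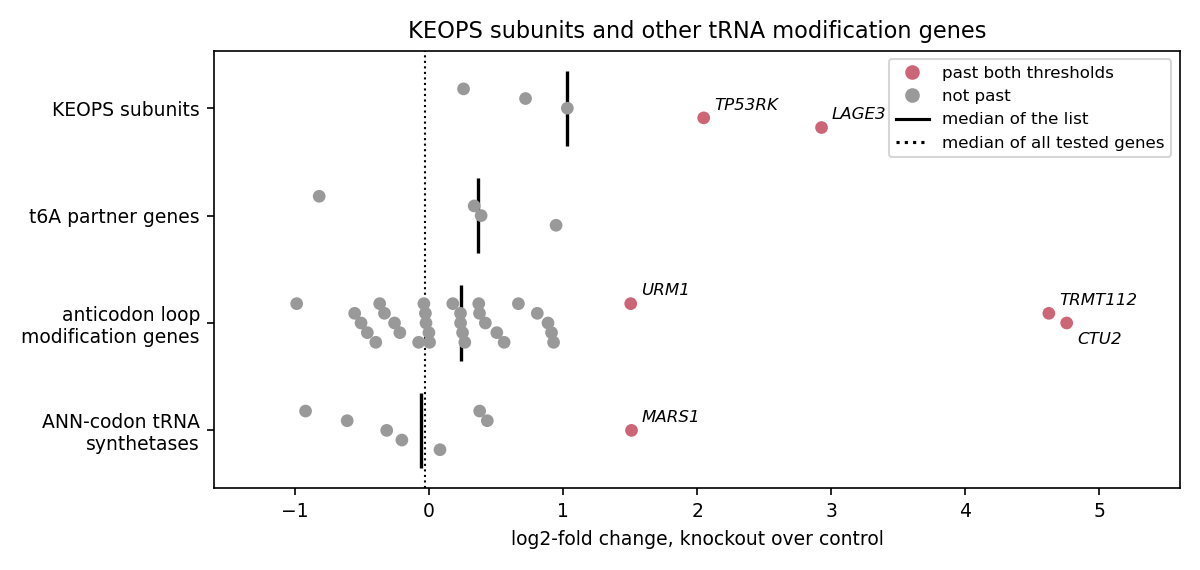
Log2-fold change of knockout over control pools for each tested gene of the KEOPS complex and of 3 related lists. Red points passed both thresholds, black lines are list medians (1.03 for KEOPS, 0.24 for the anticodon loop), and the dotted line is the median of all tested genes (−0.03). *LAGE3* and *TP53RK* lie to the right in the KEOPS row, with *TRMT112* and *CTU2* farther right in the third row.

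Among the other 6 genes of Galloway-Mowat syndrome, which include *YRDC*, none was called with edgeR, DESeq2, or limma-voom, and none had an unadjusted p-value under 0.05 in edgeR. Beside them, 5.18% of the 14391 tested genes were called in edgeR and 3359 had such a p-value, so a list of 6 says little. The largest differences were those of *WDR73* (0.68), *NUP133* (0.56), and *PRDM15* (−0.55), with edgeR BH-adjusted p-values of 0.536, 0.271, and 0.536. *CTAG1A*, *CTAG1B*, and *CTAG2*, the relatives of *LAGE3* among cancer-testis antigens, were not analysed here.

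The profile of *LAGE3* over the 5 libraries was compared with that of each of 14386 other tested genes outside the complex, as the Euclidean distance of centred log2 CPM. The median distance was 3.86. *TP53RK* was at a distance of 1.49, nearer than *OSGEP* (2.79), *GON7* (3.15), and *TPRKB* (3.43). These distances include the difference between the groups for which *LAGE3* was chosen. Their order repeats that of the log2-fold changes of these subunits, so it is no separate result either. The 5 closest genes were *KTI12*, a partner of Elongator (0.29), the ribosomal pseudogene *RPL29P4* (0.31), the asialoglycoprotein receptor gene *ASGR1* (0.36), the antisense RNA *DMTF1-AS1* (0.41), and the mitochondrial pseudogene *MTCO2P2* (0.41). Since these genes were chosen by this distance, their likeness to *LAGE3* is no separate result. *RPL29P4* was at 20.6 and 5.36 CPM in the control and at 142, 63.4, and 84.0 CPM in the knockout pools, values that follow those of *LAGE3* library by library, including the gap between the control pools. Counts of such pseudogenes are uncertain, since reads can be shared with their parent genes. *MTCO2P2* showed the same order of control pools, with 17.8 and 2.98 CPM. *KTI12*, *ASGR1*, and *DMTF1-AS1* had between 0 and 9 counts in the control pools.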

How the data were processed

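RNA-seq counts were analysed for 5 libraries, 2 of control and 3 of *MTSS1* knockout pools, grouped by their titles. The authors prepared QuantSeq 3′ libraries, aligned trimmed single-end reads to GRCh38 with HISAT2 2.1.0, removed reads without a unique position with SAMtools 1.10, and deposited raw counts per Ensembl gene. The counting program, annotation release, use of strand, and treatment of duplicates are not given in the sources used here. Without stated strand, genes that overlap on opposite strands cannot be separated. Reads carry no molecular identifiers, so intervals cover counting error only. P-values measure the spread between pools of clones.

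Counts were analysed with edgeR 4.0.16 in R 4.3.3 (quasi-likelihood test, TMM, filterByExpr with a minimum count of 10, condition alone, Benjamini-Hochberg over 14391 genes). Standard errors come from the fold change and the F statistic. Names, positions, and transcripts are from GENCODE 44 and promoters from RefSeq. The test was checked on simulated data with a common dispersion for all genes. Of 200 genes with a simulated 4-fold change, 124 were called, and 4 unchanged genes were called. A gene that was not called may therefore still differ. Alternatives were DESeq2 1.42.0, limma-voom (limma 3.58.1), robust estimation, other scalings and filters, thinning, a block for the pool number, offsets for GC content and length (mgcv 1.9.3), and each library left out. Members, lists, and tests were chosen with earlier results of these data known. Named genes are the subunits, t6A partners, called genes and the 3 largest differences of other lists, neighbors, and the 5 profiles nearest to *LAGE3*. *CTU1* was named after its values were seen. Some items are not reported here.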

Additional observations from a re-analysis of the deposited data

How the results depend on the processing

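In total 745 genes were differentially expressed, and 17 other settings were tried. The number was 1374 with no filter on low counts, 1286 with DESeq2, and between 111 (without the sgMTSS1_1 pool) and 1349 (without control pool 1) with 1 library left out. With offsets for GC content and length, 593 genes were higher and 367 lower, against 600 and 145. The median log2-fold change of all genes was −0.03, and −0.17 when only totals were used for scaling. The 2 calls among KEOPS subunits held in the 12 settings that kept all libraries, and between 0 and 2 remained with 1 library left out, 0 without the sgMTSS1_1 or the sgMTSS1_3 pool and 1 without control pool 2. Those 12 include the fits with the pool number as a block. There the sgMTSS1_3 pool, whose number no other pool has, adds nothing to the contrast. In the settings that kept all libraries, the log2-fold change was 2.73 to 3.20 for *LAGE3*, 1.86 to 2.20 for *TP53RK*, 0.84 to 1.18 for *OSGEP*, and 0.42 to 0.87 for *GON7*. *TPRKB* turned to −0.0937 with the offsets, to −0.0984 with the offsets and the replicate block, and ranged from −0.0905 (without the sgMTSS1_1 pool) to 0.469 (without control pool 1) with a library left out. For anticodon loop genes, 1 call was left with at least 10 counts in every library, where *TRMT112* and *CTU2* were not tested, and 1 to 4 with a library left out. For the synthetases, 0 were left with the replicate block and the offsets, and 0 to 1 with a library left out. A library left out of the control leaves 1 control pool, which is assumed to vary like the knockout pools. The pool numbers 1 and 2 occur in both groups, but nothing says that they mark a shared batch. The differences of pool 1 minus pool 2 in the groups had a Pearson's r of 0.17 across genes. With unmatched knockout pairs, the same control difference had an r of 0.19 (sgMTSS1_1 minus sgMTSS1_3) and 0.008 (sgMTSS1_2 minus sgMTSS1_3). With the number as a block, 1094 genes were called, with the same 2 KEOPS subunits and a log2-fold change of 3.15 for *LAGE3*. *LAGE3P1* has no adjusted p-value in DESeq2. *GON7* rests on 18 to 145 counts per library and *LAGE3* in the control pools on 19 and 73, which limits their precision. The cause of these changes was not tested.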
